A study of Drosophila melanogaster with 3 samples.

Results

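Cuticle proteins with a chitin-binding domain (Cpr genes), Tweedle proteins (Twdl genes) and Osiris proteins (Osi genes) are 3 gene families of the Drosophila melanogaster body wall, and many of their genes stand side by side in dense genomic clusters. They were set here against the places where CG8119, a protein tagged with green fluorescent protein, was found on chromatin. All protein-coding genes of build dm6 whose symbol is Cpr, Twdl or Osi followed by a letter or digit were taken, which gave 120 genes of 13968. They comprised 70 Cpr, 25 Twdl and 25 Osi genes.

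The insect exoskeleton is a layer of chitin fibres and proteins that epidermal cells secrete at their outer surface and replace at each moult. Cpr proteins bind chitin through a conserved domain and make up much of the hard and soft cuticle. Tweedle proteins are secreted into the cuticle too, and altered forms of some of them change the shape of the larval body. Osiris proteins are membrane proteins that appear in epidermal and tracheal cells while these secrete cuticle, and some of them are needed to shape it. At the prepupal stage the steroid hormone ecdysone switches the epidermis from larval to pupal cuticle, so that whole sets of these genes are turned on and off in waves.

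The study used chromatin immunoprecipitation followed by sequencing of whole prepupae aged 1 day. The animals carried an insertion that expresses CG8119 fused to enhanced green fluorescent protein, and an antibody against the tag pulled down the chromatin. There was 1 group with 3 biological replicates, and what drives the fusion gene was not given in the labels used here. Whole animals mix epidermis with every other tissue, and no expression was measured. A peak near a gene does not show that the gene is regulated.

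Each replicate has a thresholded peak list, with 7279, 6769 and 4608 peaks in replicates 1, 2 and 3. Peaks there reached an irreproducible discovery rate (IDR) of 0.01 or less, where a low IDR marks a peak that ranks alike in repeated peak sets. A longer ranked list of 45667, 44378 and 28104 peaks keeps weaker sites with their IDR. Read depth is unknown, and replicate 3 has the shortest list of both kinds. Each peak has 1 summit, its highest point. Summits within 150 bp of each other were joined into a locus, and those that contained summits from each of the 3 replicates are the shared loci. There were 3746 shared loci among 9014 loci.

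Few of the cuticle genes had a shared CG8119 locus nearby. A shared locus lay in or within 2 kb of 9 of the 120 genes, or 7.5% (exact 95% interval 3.49 to 13.8%), whereas 21.7% of all protein-coding genes had one. Among the Cpr genes there were 6 of 70 (8.57%, interval 3.21 to 17.7%). Among the Osi genes there were 3 of 25 (12%, interval 2.55 to 31.2%). No Twdl gene had one. The exact interval for 0 of 25 genes reaches up to 13.7%, and the limit set by 3 counts is 12%. These intervals and limits treat genes as independent and cover counting error only, although neighbouring genes can share a locus. No test was run, since the design has no second group. In the authors' conservative list of the pooled replicates, 22 of the 120 genes (18.3%) had a summit and 40.6% of all did.

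The share was also low when summits of single replicates were counted. A thresholded summit of at least 1 replicate lay in or within 2 kb of 22 of the 120 genes (18.3%), whereas this held for 39.1% of all protein-coding genes. Of the 120 genes, 98 had no summit, 9 had summits in 1 replicate, 3 in 2 replicates and 10 in all 3. By replicate, 17, 17 and 11 of the 120 genes had a summit (14.2, 14.2 and 9.17%), against 34.9, 32.2 and 24.5% of all protein-coding genes in replicates 1, 2 and 3. The share of the cuticle genes was the lower one in each replicate. The Cpr genes with a summit numbered 12, 14 and 8, the Osi genes 5, 3 and 3, and the Twdl genes 0 in each replicate.

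The loci near the cuticle genes were AT-rich, and 6 of the 8 sites on which these counts rest are printed here. The 2 not printed are those of Cpr50Ca, in which A and T made up 68.3 and 71.3% of the bases. Each line gives 101 bp of the plus strand of dm6 around the centre of a shared locus, from the RefSeq genome, with the longest unbroken run of A and T in capitals.
Cpr31A chr2L:10057415-10057515: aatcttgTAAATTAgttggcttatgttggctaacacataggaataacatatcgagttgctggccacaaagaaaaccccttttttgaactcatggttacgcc
Osi24 chr3R:6198526-6198626: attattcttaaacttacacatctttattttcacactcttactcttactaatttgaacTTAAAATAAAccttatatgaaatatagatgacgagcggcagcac
Osi2 and Osi3 chr3R:6214385-6214485: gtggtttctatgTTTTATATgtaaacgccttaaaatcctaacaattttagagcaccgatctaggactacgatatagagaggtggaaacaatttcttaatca
Cpr72Ea, Cpr72Eb and Cpr72Ec chr3L:16364371-16364471: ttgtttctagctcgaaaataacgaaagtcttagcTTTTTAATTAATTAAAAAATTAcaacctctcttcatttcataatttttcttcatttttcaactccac
Osi2 chr3R:6210744-6210844: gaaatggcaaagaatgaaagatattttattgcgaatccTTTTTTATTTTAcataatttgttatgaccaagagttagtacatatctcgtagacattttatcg
Cpr76Bc chr3L:19524855-19524955: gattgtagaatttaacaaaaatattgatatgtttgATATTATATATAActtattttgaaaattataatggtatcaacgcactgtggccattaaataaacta

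For contrast, the same length is printed from 150 to 50 bp before the starts of TwdlM and TwdlD. They are the first and the last gene of a cluster of 12 Twdl genes in which no replicate had a thresholded summit.
TwdlM chr3R:26618968-26619068: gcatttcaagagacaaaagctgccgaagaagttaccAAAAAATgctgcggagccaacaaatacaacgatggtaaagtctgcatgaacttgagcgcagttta
TwdlD chr3R:26639875-26639975: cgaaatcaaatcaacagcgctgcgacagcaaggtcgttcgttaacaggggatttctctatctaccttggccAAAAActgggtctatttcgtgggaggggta

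In these windows A and T made up 61.4% of the bases at Cpr31A, 71.3% at Osi24, 66.3% between Osi2 and Osi3, 74.3% at the Cpr72E locus, 72.3% in Osi2 and 78.2% in Cpr76Bc. The 2 Tweedle windows, which are placed by gene start and not by a summit, held 57.4 and 51.5%. Flanks 500 bp from all shared loci had a median of 57.4%, so such values are not particular to Tweedle genes. The longest A/T run was 7 bp at Cpr31A, 10 bp at Osi24, 8 bp between Osi2 and Osi3, 22 bp at the Cpr72E locus, 12 bp in Osi2 and 13 bp in Cpr76Bc. It was 7 bp before TwdlM and 5 bp before TwdlD, so Cpr31A, the strongest of the loci, had no longer a run than TwdlM. All of these windows lie outside annotated exons.

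The strength of a shared locus is given as the percentile of its signal within the thresholded list, averaged over the replicates. The signal itself comes from the authors, and its scale is not stated. Over the 8 shared loci near cuticle genes the strength ran from 35.3 to 89.1, with a median of 71.1, whereas the median over all 3746 shared loci was 66.6 (quartiles 47.5 and 83.4). Of the 8, 5 stood above that median. The loci were few, and their strengths spread over much of the range of all shared loci.

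The strongest lay 1530 bp downstream of Cpr31A, at 2L position 10057465. Its signal was 293, 248 and 224 in replicates 1, 2 and 3, which are percentiles 91.2, 88.9 and 87.1 (mean 89.1 ± 2.09, SD, n = 3). All 3 replicates placed it in the upper part of their lists. It sits in an intron of Pen, which encodes an importin that carries proteins into the nucleus, 565 bp inside the start of Pen. It is the 1 locus of the 8 whose nearest protein-coding start belongs to a gene outside the 3 families.

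Osi24, the first gene of the large Osiris cluster, had a locus 235 bp before its start, at 3R position 6198576. The signal was 281, 223 and 156, or percentiles 90.6, 86.6 and 75.6 (84.3 ± 7.74, SD, n = 3). Osi2, the next gene, had a pair of loci. The one downstream, at 6214435, lies 942 bp past the end of Osi2 and 1397 bp before Osi3. Its signal was 256, 152 and 114 (percentiles 88.9, 74.3 and 60.1, mean 74.4 ± 14.4), so replicate 1 stood well above replicate 3. The one inside Osi2, at 6210794 and 205 bp from an annotated start, had 99.2, 124 and 81.2 (percentiles 53.6, 64.9 and 37.2, mean 51.9 ± 13.9). It was of middling strength in replicates 1 and 2 and in the weaker part of the list in replicate 3.

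Cpr50Ca, a long Cpr gene on 2R, also had a pair of loci, both upstream. The nearer one, 354 bp before its start at position 13769561, had a signal of 182, 177 and 140 (percentiles 80.4, 80.1 and 70.8, mean 77.1 ± 5.49). The farther one, 1393 bp before the start at 13768522, had 137, 92.8 and 109 (percentiles 70.1, 48.1 and 57.7, mean 58.7 ± 11.0). The nearer locus was the stronger in every replicate. Its neighbour Cpr50Cb had no thresholded summit.

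The 3 genes of the Cpr72E cluster shared 1 locus, at 3L position 16364421. It lies 478 bp before Cpr72Eb, 671 bp past the end of Cpr72Ea and 1473 bp past the end of Cpr72Ec. Its signal was 130, 145 and 121 (percentiles 67.8, 72.4 and 63.2, mean 67.8 ± 4.59), close to the median of all shared loci. The 3 genes enter the count of 9 through this 1 place. Cpr76Bc held the weakest of the 8, in an intron at 3L position 19524905, 3638 bp from its start. There the signal was 61.5, 103 and 76.4 (percentiles 17.7, 55.1 and 32.9, mean 35.3 ± 18.8), and the replicates disagreed widely.

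**Figure D1:**
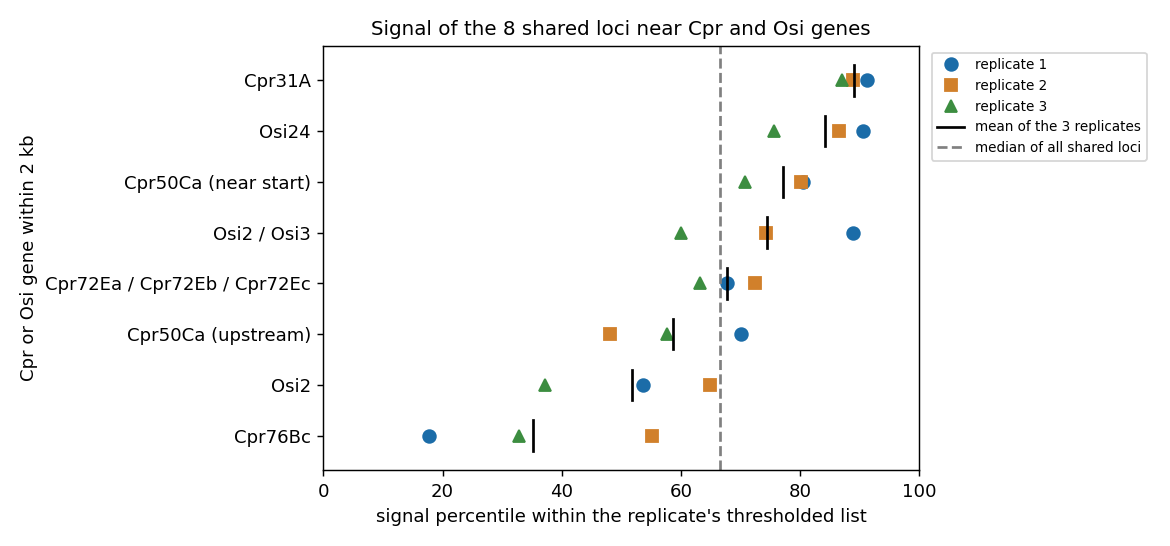
The horizontal axis gives the percentile of the signal within the thresholded list of a replicate for each of the 8 shared loci, with a symbol per replicate, a bar for the mean and a dashed line for the median of all shared loci (66.6). The Cpr31A and Osi24 loci and the nearer Cpr50Ca locus lie right of the line in every replicate. The loci inside Osi2 and Cpr76Bc lie left of it in every replicate, and replicate 3 was the lowest of the 3 at 6 of the 8 loci.

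By position, 4 of the 8 loci (50%) were promoter loci, within 500 bp of an annotated start, whereas 32.0% of all shared loci were. These 4 lay at Osi24, Cpr50Ca, Cpr72Eb and Osi2, and each was nearest to the start of that gene. Introns held 2 of the 8 (25%), against 49.4% of all shared loci, and intergenic DNA held 2 (25%), against 16.4%. With 8 loci each one counts for 12.5 percentage points.

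Loci that only some replicates called made up most of those near these genes, as they did over all loci. Of 26 thresholded loci in or within 2 kb of the cuticle genes, 8 (30.8%) were seen in all 3 replicates, 6 (23.1%) in 2 and 12 (46.2%) in 1. Over all 9014 loci the shares were 41.6, 21.3 and 37.2%. With 26 loci, the shares near these genes can shift with a few loci, and the difference was not tested. All 6 loci seen in 2 replicates were those of replicates 1 and 2, the longer lists. Of the 12 seen in 1 replicate, 6 came from replicate 1, 4 from replicate 2 and 2 from replicate 3. The same split over all loci is not given here, so it is not known whether these numbers differ from the genome at large. Without replicate 3, the shortest list, 14 loci near 13 of the 120 genes (10.8%) were held by both of the other replicates, whereas 27.8% of all protein-coding genes then had one.

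Among the loci of 2 replicates, the strongest lay inside Cpr51A (percentile 57.6 over the 2 replicates), but nearer to the start of CG30197. The next lay 1255 bp before Cpr72Ea (53.3), beside the shared locus of that cluster. Cpr73D had 2 such loci. The one of percentile 50 lies in an intron of both Cpr73D and Ogdh, which encodes a subunit of a citric acid cycle enzyme, and the other had 24.6. Replicate 3 had an intronic summit nearby at 3L position 16956441, too far from the others to be joined with them, so that Cpr73D had summits in all 3 replicates and no shared locus. Cpr66D had a locus in its intron (28.1) and Cpr47Ec one 56 bp past its end (22.4).

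Genes with a summit in 1 replicate were Osi6, Osi4, Cpr47Ed, Cpr49Ah, Cpr57A, Cpr62Ba, Cpr66Cb, Cpr97Ea and Cpr97Eb. The strongest of their summits lay 1356 bp before Osi6, at percentile 53.9 of replicate 1. The one 540 bp before Osi4 was at percentile 9.29 of replicate 1. Cpr97Ea and Cpr97Eb shared 1 summit of replicate 2, at percentile 15.4.

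Cuticle genes are short, and a short gene offers a small window. The median length was 1203 bp (1093.5 bp for Cpr, 1088 bp for Twdl and 1611 bp for Osi genes), against 2164.5 bp for all protein-coding genes, and 77.5% of the cuticle genes were shorter than 2 kb, against 46.8% of all. The shares were therefore read within length classes. Under 2 kb, 4 of 93 cuticle genes (4.30%) had a shared locus and 12.7% of all protein-coding genes did. From 2 to 5 kb it was 2 of 18 (11.1%), with 18.6% of all. At 5 kb or more it was 3 of 9 (33.3%), with 42.1% of all. The cuticle genes had the smaller share in each of the 3 classes, the last of which rests on 9 genes.

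**Figure D2:**
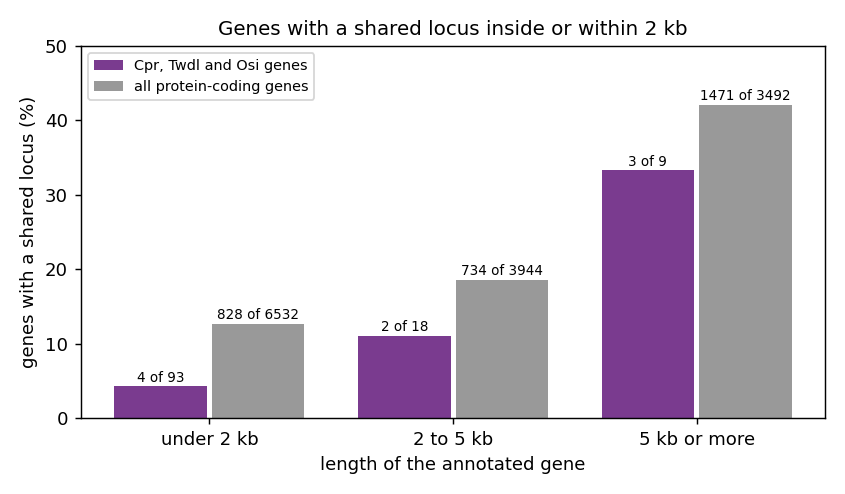
Bars give the percentage of genes with a shared locus in or within 2 kb, for the Cpr, Twdl and Osi genes (left bar) and all protein-coding genes (right bar) in 3 classes of gene length, with the counts printed above. Both bars are taller for longer genes, and the left bar is the shorter one in each class.

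The density of summits removes gene length in another way. The windows of the 120 genes cover 601.705 kb, or 0.437% of the chromosome arms. They held 20, 19 and 10 summits in replicates 1, 2 and 3 (16.3 ± 5.51, SD, n = 3), or 0.257 ± 0.0352% of the thresholded lists. Summits per kilobase were thus 0.628, 0.642 and 0.496 times the mean of the arms (0.589 ± 0.0804). The arms were taken at full length, which lowers their mean. Peaks on 3L end at position 22879065 of 28110227, and the Y chromosome had none. The same ratio for the windows of all protein-coding genes was 1.15 ± 0.00967. Those windows cover 75.8% of the arms, which limits how far their ratio can rise above 1. The replicates lay closer to each other than to the ratio for all genes. They partly recount the same loci, so their spread does not measure the uncertainty of the ratio over these genes.

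By family, the Osi windows, 142.128 kb, had 0.665, 0.429 and 0.630 (0.575 ± 0.127, SD, n = 3), from 5, 3 and 3 summits. The Cpr windows, 370.314 kb, had 0.765, 0.878 and 0.564 (0.736 ± 0.159), from 15, 16 and 7 summits. The ranges of these 2 families over the replicates overlapped. The Twdl windows, 89.263 kb, held 0 summits in each replicate.

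Distances to shared loci were long for many of the cuticle genes. The median distance from a gene to the nearest shared locus was 60.5 kb for Twdl, 18.3 kb for Cpr and 16.4 kb for Osi genes (19.97 kb for the 120 together), against 11.1 kb for the protein-coding genes on arms with a shared locus. A shared locus lay within 10 kb of 3 of the 25 Twdl genes (12%), 22 Cpr genes (31.4%) and 8 Osi genes (32.0%), whereas 47.1% of all had one. The 3 Twdl genes were TwdlC at 6.097 kb, Twdlalpha at 6.816 kb and TwdlX at 7.726 kb. The farthest, TwdlJ, was 82.103 kb away. The long Twdl median rests on 1 cluster, TwdlM to TwdlD, whose 12 genes lay 71.303 to 82.103 kb away. The 13 other Twdl genes had a median of 18.9 kb, close to that of the Cpr genes, in a split made after the distances were seen.

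**Figure D3:**
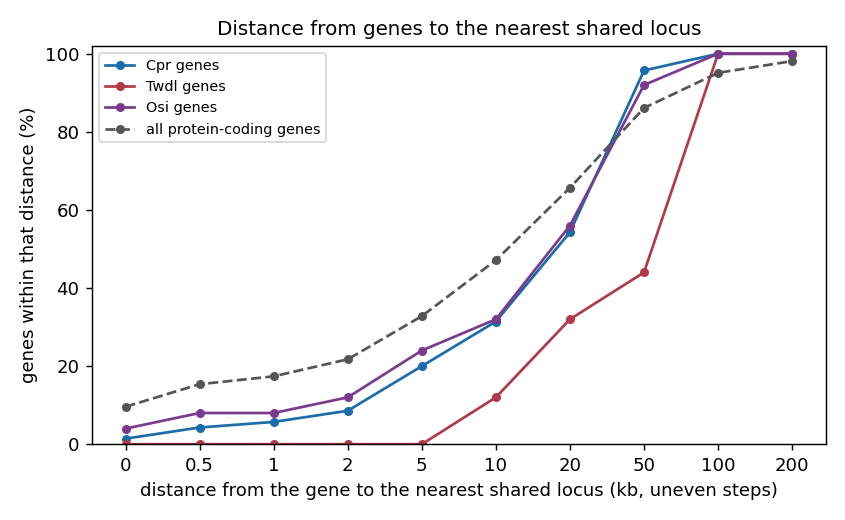
The horizontal axis gives the distance from a gene to the nearest shared locus in kb, in uneven steps, and the vertical axis the percentage of genes within that distance, with a line for each family and a dashed one for all protein-coding genes. The 3 families run below the dashed line up to 20 kb, with 12% of Twdl genes inside 10 kb, and all of them have reached 100% by 100 kb.

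Chained at gaps of at most 20 kb, the genes formed 14 clusters of 3 or more, with 85 genes in clusters and 35 outside. A shared locus near a member occurred in 3 clusters, namely Osi24 to Osi20 (3 of 21 genes), Cpr72Ea to Cpr72Ec (3 of 3) and Cpr76Ba to Cpr76Bd (1 of 4). Outside clusters, 2 of 35 genes had one, Cpr31A and Cpr50Ca. The 11 other clusters ran from Cpr47Ea to Cpr47Eg, Cpr49Aa to Cpr49Ah, Cpr62Ba to Cpr62Bc, Cpr64Aa to Cpr64Ad, Cpr65Au to Cpr65Az, Cpr65Ea to Cpr65Ec, Cpr67Fa1 to Cpr67Fb, Cpr78Ca to Cpr78Cc, TwdlF to TwdlV, TwdlM to TwdlD and TwdlX to Twdlalpha. The Cpr65Au to Cpr65Az cluster, 30.348 kb long, had 1 shared locus in its span but more than 2 kb from any of its Cpr genes.

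Several clusters lie in long stretches without a shared locus. The stretch over TwdlM to TwdlD, a cluster of 12 genes in 21.937 kb, was 166.571 kb long, and 3.10% of the 3740 gaps between neighbouring shared loci were as long or longer. The one over TwdlF to TwdlV was 165.948 kb (3.13%), the one over Cpr49Aa to Cpr49Ah 156.371 kb (3.45%) and the one over Cpr65Ea to Cpr65Ec 137.08 kb (4.55%). The median gap was 11.5 kb. The longest gap to reach a cluster, 195.213 kb (1.95%), ended at the shared locus in Cpr76Bc, so long gaps were not confined to clusters without a locus. A long gap is more likely to be met by any gene than a short one, so these shares are a description of the gaps only. Not every cluster was in such a stretch. The gap over the TwdlX to Twdlalpha cluster on the X chromosome was 27.816 kb, and 29.5% of gaps were as long or longer.

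The Osiris cluster on 3R, from Osi24 to Osi20, spans 142.614 kb with 21 Osi genes, and is known from older genetics as a region whose extra copy is lethal. With 2 kb on either side it held 7, 5 and 5 thresholded summits and 4 shared loci, against 3.99 at the mean density of the genome. The cluster as a whole was thus close to that mean, which is lowered by long stretches of the arms without peaks. The shared loci sat unevenly. Measured from the left end of Osi24, shared loci lay at -0.235 kb (strength 84.3), 11.983 kb (51.9), 15.624 kb (74.4) and 42.593 kb (40.97). The last is 4223 bp from Osi6, the nearest Osi gene, and so was not counted for any gene.

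Beyond that point no shared locus followed for 102.32 kb, a length that 7.35% of gaps reach. A locus of replicates 1 and 2 at 76.875 kb was weak (12.3) and 2845 bp from Osi12. The next shared locus came at 144.913 kb (32.2), 2300 bp past Osi20 and 305 bp from the start of CG17919. The genes from Osi7 to Osi20 had no thresholded summit within 2 kb in any replicate.

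**Figure D4:**
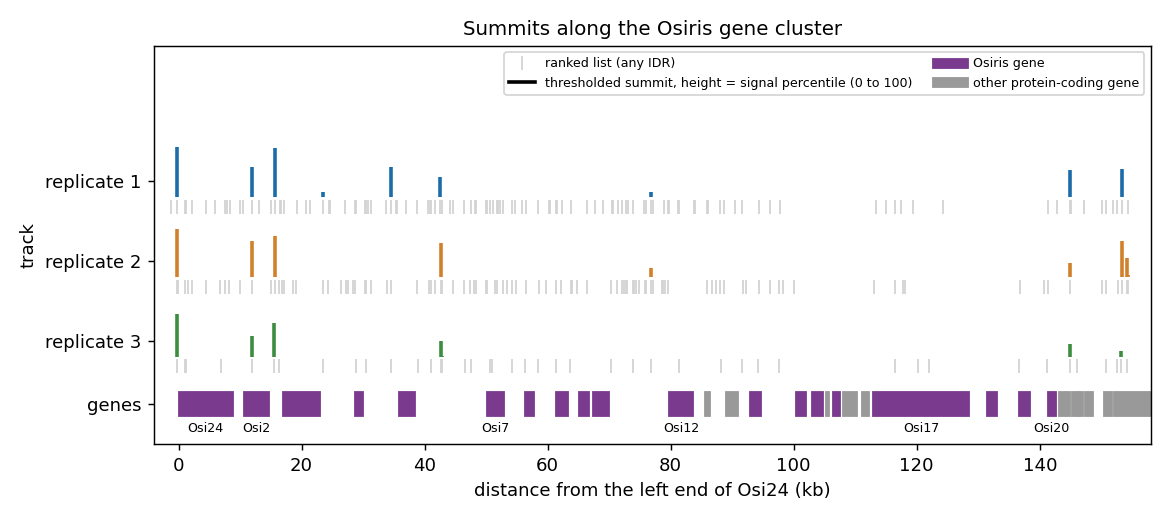
The horizontal axis gives the distance from the left end of Osi24 in kb, and each replicate has a track with thresholded summits as tall lines, scaled by signal percentile, above ranked summits as short grey lines. Thresholded summits of all 3 replicates stand at the left end, at -0.235, 11.983, 15.624 and 42.593 kb, and next past the right end of the cluster at 144.913 kb.

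The ranked lists hold weaker sites. Taking loci with a summit of all 3 replicates at an IDR of 0.01 or less gave 9 genes (7.5%), with 22.0% of all protein-coding genes. At 0.05 it was 10 genes (8.33%), with 25.6% of all, and at 0.1 it was 12 genes (10%), with 27.2% of all. With no limit on the IDR it was 43 genes (35.8%), with 45.4% of all. The distance between the shares was smaller without the limit. Of the 43, 28 were Cpr, 14 were Osi and 1 was a Twdl gene.

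The gene added at 0.05 was Cpr51A, at IDR 0.000352, 0.000275 and 0.0205 in replicates 1, 2 and 3. At 0.1 Osi17 and Cpr97Eb joined. Osi17 had IDR 0.0875, 0.0236 and 0.0553 at -47 bp from an annotated start, with no thresholded summit in any replicate. The Cpr97Eb site had IDR 0.0296, 0.00807 and 0.0811 and lay nearer to the start of CG14258. Among genes with no thresholded summit, the lowest IDR of any replicate were those near Osi5 (0.0187, in replicate 1), Cpr76Bb (0.0194, in replicate 1), Osi17, and the neighbours Osi10b and Osi11 (0.0416 in replicate 1 for both). Of these 5 genes 4 belong to the Osiris cluster, which holds 21 of the 120 genes, but Osi10b and Osi11 share 1 site. The 5 were picked by their lowest replicate. In replicates 2 and 3 the lowest IDR was 0.0573 and 0.740 near Osi5 and 0.453 and 0.297 near Cpr76Bb. In replicate 3 it was 0.567 near Osi10b and Osi11. The 1 Twdl gene, named after its values were seen, was TwdlE, with a site 74 bp before its start at IDR 0.0624, 0.482 and 0.0700.

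Many Tweedle genes had no weak site nearby either. No ranked summit of any replicate lay in or within 2 kb of 12 of the 25 Twdl genes (48%), against 10 Cpr genes (14.3%), 3 Osi genes (12%) and 16.9% of all protein-coding genes. Of the 12, TwdlL, TwdlO, TwdlK, TwdlJ, TwdlN, TwdlH and TwdlR stand side by side in the TwdlM to TwdlD cluster. Much of the 48% thus rests on 1 stretch of the genome. A ranked summit in each of the 3 replicates was found for 3 Twdl genes (12%), 39 Cpr genes (55.7%) and 17 Osi genes (68.0%), with 55.1% of all. Neighbouring genes can share a ranked summit, so these shares do not rest on separate sites. Nor were the shares matched for gene length. By density, the Twdl windows had 1.19 ± 0.461 times the mean of the arms at IDR 0.05 to 0.1 (all genes 1.13). From 0.1 to 0.3 they had 1.43 ± 0.996 (all genes 1.12), with replicates on both sides in each range. Above 0.3 they had 0.790 ± 0.214 (all genes 1.10).

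The density of ranked summits changed with the IDR. At 0.01 or less it was 0.616, 0.629 and 0.487 times the mean of the arms in the windows of the 120 genes (0.577 ± 0.0786, SD, n = 3), against 1.16 ± 0.00930 in those of all protein-coding genes. From 0.01 to 0.05 it was 0.432, 0.719 and 0.298 (0.483 ± 0.215), against 1.13 ± 0.0186. From 0.05 to 0.1 it was 1.59, 0.970 and 1.47 (1.34 ± 0.327), against 1.13 ± 0.0206, and the replicates lay on both sides of the value for all genes. From 0.1 to 0.3 it was 1.62, 1.54 and 1.59 (1.58 ± 0.0379), against 1.12 ± 0.0116. Above 0.3 it was 1.56, 1.41 and 1.14 (1.37 ± 0.212), against 1.10 ± 0.0177. Strong summits were sparser near cuticle genes than near genes at large in every replicate, and summits with an IDR above 0.1 were denser in every replicate.

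By family, the density of weak summits varied between replicates. From 0.05 to 0.1 the Osi windows had a ratio of 3.08 ± 1.496 (SD, n = 3), from 10, 3 and 4 summits, so its spread was wide. The Cpr windows had 0.711 ± 0.271, from 6, 5 and 1 summits, and the Twdl windows 1.19 ± 0.461, from 2, 1 and 1. From 0.1 to 0.3 the means were alike, at 1.65 ± 0.975 for Osi, 1.598 ± 0.207 for Cpr and 1.43 ± 0.996 for Twdl windows, with replicates of 1.71, 2.59 and 0.642 for Osi and of 1.09, 0.651 and 2.55 for Twdl. Above 0.3 the ratio was 1.67 ± 0.602 for Osi, 1.39 ± 0.165 for Cpr and 0.790 ± 0.214 for Twdl windows. At 0.05 or less the Twdl windows held 0 summits in each replicate. A peak with a high IDR may not recur, and the sources used here do not say how reads that fit several similar gene copies were treated.

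**Figure D5:**
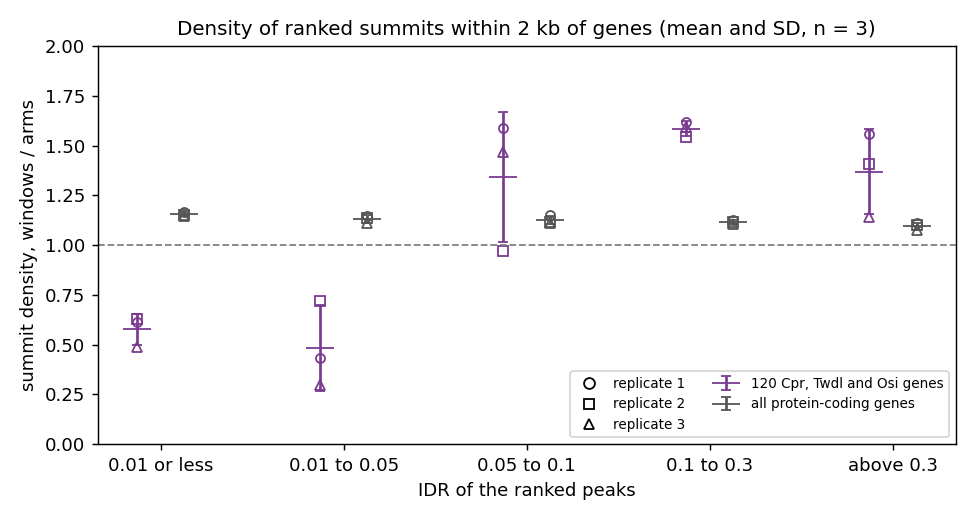
The vertical axis gives the density of ranked summits in gene windows over the mean density of the arms, for 5 ranges of IDR, with the Cpr, Twdl and Osi genes left of all protein-coding genes, a symbol per replicate, and the mean and SD of the 3 replicates. The means of all protein-coding genes, whose windows cover 75.8% of the arms and so cannot rise far, stay between 1.10 and 1.16. The cuticle genes stand at 0.577 in the lowest range and at 1.58 from 0.1 to 0.3.

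Sites near cuticle genes were about as AT-rich as shared loci at large. Over 101 bp the median AT content was 71.3% at the 8 loci near cuticle genes and 71.3% at all shared loci, and in flanks 500 bp away it was 59.2 and 57.4%. The median longest A/T run was 12.5 bp at the 8 loci, against 11 bp at all shared loci and 8 bp in the flanks of all. The DNA just before cuticle genes was different: over 300 bp upstream the median AT content was 54.3% at 132 starts of the 120 genes, against 61.7% at 19630 protein-coding starts. Over whole windows of gene and 2 kb it was 56.5 and 56.1%. Whether the lower AT content before these starts has a part in the low counts was not tested.

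Short words were sought within 100 bp of locus centres and starts, on both strands. TTTAAAA and AAAATAT, which led a ranking of 7-base words at all shared loci and overlap by several bases, were at 0 and 2 of the 8 cuticle loci, with 25.4 and 30.7% of all shared loci. They stood at 4.55 and 3.79% of cuticle starts, against 13.6 and 16.4% of 19275 protein-coding starts. GAGAG, a word bound by the GAGA factor, was at 3 of the 8 loci (37.5%) and 23.1% of all shared loci, and at 25.8% of cuticle starts against 24.97% of all starts. CAGGTAG was at 1 of the 8 and 0.587% of all shared loci. CACACAC was at 0 of the 8 and 5.69% of all, and TATCGATA at 0 and 0.641%. CAAGGTCA, AACCGGTT and CACGTG were at none of the 8, with 0.294, 0.187 and 1.33% of all. A match or its lack in 8 windows describes letters only.

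Other genes of the cuticle were counted by the same rule from 5 lists. Of 30 other cuticle proteins, such as larval and pupal cuticle proteins outside the Cpr names, 1 had a shared locus (3.33%, with 21.7% of all protein-coding genes). It was Pcp, a pupal cuticle protein gene that lies in an intron of Gart, with a strength of 51.4 ± 14.2 (SD, n = 3), and the locus was nearest to the start of Gart. Of 39 genes for chitin synthesis and modification, 9 had one (23.1%). The leading ones were Cht7, a chitinase (94.3 ± 1.70), the growth factors Idgf1 and Idgf2, which share 1 locus nearest to CG5888 (89.97 ± 3.10), and Cht11 (70.2 ± 7.504), whose locus is nearest to the start of CG4558.

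Of 23 genes for tanning and pigmentation, 4 had one (17.4%). They were speck, which encodes an enzyme that acetylates dopamine (99.1 ± 0.248), Pu, needed for pteridine synthesis (52.3 ± 12.7), yellow-d (44.6 ± 9.30) and amd (25.6 ± 17.4). The Pu locus is nearest to the start of CG4286 and the yellow-d locus to that of Golgin245. Of 12 apical matrix proteins, 7 had one (58.3%), led by dyl (93.4 ± 1.64), dy (90.9 ± 5.18), pio (75.3 ± 3.74) and nyo (69.5 ± 10.7). All 4 encode zona pellucida domain proteins that join cells to the matrix, and the nyo locus is nearest to the start of gammaCOP. Of 17 regulators of cuticle genes, 13 had one (76.5%). Eip75B, a nuclear receptor induced by ecdysone, had 8 loci, the strongest at 98.1 ± 0.667, and Hr4 had 12 (97.1 ± 1.65). Hr3 reached 93.1 ± 2.12, at a locus nearest to the start of CG34221, and Eip74EF 90.4 ± 4.33. All 13 are long genes, from 22426 to 113744 bp. The share among all protein-coding genes of 5 kb or more was 42.1%, but that class also holds much shorter genes. The 7 matrix genes with a locus ran from 1947 to 60346 bp, and their list was not compared by length. The structural genes of the 3 families and their relatives lay low by this count, and the matrix and regulator genes high. The lists were chosen with earlier results of these data known, so this contrast is a description only.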

How the data were processed

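Peaks were derived on build dm6 from filtered alignments of each replicate and a control, per the file headers of the deposited README texts. Not given in the sources used here are the aligner, the peak caller, the treatment of multiply mapping reads and the sets compared by IDR. The deposited lists give the authors' signal per peak, a scaled IDR score (at least 830 in the thresholded lists) and, in the ranked lists, the −log10 of the global IDR. Depth is unknown.

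Genes came from Ensembl release 115 and sequences from the RefSeq genome of the same assembly. Python 3.11.15, numpy 2.4.6, pandas 2.3.3 and scipy 1.17.1 were used. Windows were the gene body with 2 kb on each side, coordinates are 1-based, and intervals are Clopper-Pearson. The counting was tested on simulated lists. No p-value was computed.

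Families, lists and rules were chosen with earlier results of these data known. Length classes, distance steps, the split of Twdl distances, IDR ranges above 0.1, AT content and the words TTTAAAA and AAAATAT were chosen after seeing the data. Named genes are those with a shared locus, up to 10 each with summits in 2 or 1 replicates, the ends of each cluster, up to 5 with the lowest IDR among genes without a thresholded summit, and up to 4 per list. Alternatives changed the window, join distance, threshold, list length and replicates.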

Additional observations from a re-analysis of the deposited data

How the results depend on the processing

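The cuticle genes had a smaller share with a shared locus than all protein-coding genes in 16 of 16 alternatives, and the Twdl genes had 0 in each. Most alternatives reuse the thresholded lists with windows of 2 kb or less. There the Twdl result was fixed in advance, since no replicate had a summit within 2 kb of a Twdl gene. The 5 kb window, the ranked lists and the conservative list could have given another value. Of 162 values recomputed under an alternative, 100 were classed as close to the reported one and 62 as moved. The classes are coarse for small counts. Counts of 6 and 13 cuticle genes, against the reported 9, were classed as close. A share of 22.5% of all genes, against 21.7%, was classed as moved. The cause of each move was not tested beyond what the alternative itself changes.

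With windows of 500 bp, 5 cuticle genes had a shared locus, at 5 loci, with 15.3% of all genes having one, and there were 10 summits per replicate, 0.160% of the lists. At 1 kb it was 6 cuticle genes (5%, against 17.4%), and the summits were 0.200% of the lists. At 5 kb it was 20 genes (16.7%, against 32.8%) at 16 loci in 6 clusters, 11 of them nearest a cuticle gene, with a median strength of 57.4, 29.7 summits (0.477%) and a density ratio of 0.703. The gene body alone gave 2 genes (1.67%, against 9.58%) at 2 loci, both nearest a cuticle gene, with strength 43.6, 5.67 summits (0.0886%) and a ratio of 0.479. Within 500 bp of starts it was 4 genes (3.33%, against 9.06%) at 4 loci, all nearest a cuticle gene, with 4.67 summits (0.0784%) and a ratio of 0.841.

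Joining at 50 bp gave 6 cuticle genes (5%, against 19.2% of all genes). Ranked lists at IDR 0.01 and 0.05 gave median strengths of 95.3 and 94.7, since percentiles are then taken in longer lists. At 0.05 there were 22.7 summits and 25.6% of all genes. The stronger 50% of each list gave 15.0% of all genes, 5 loci, 4 of them nearest a cuticle gene, and 8.33 summits. Lists of equal length gave 19.9% of all genes. Any 2 replicates gave 29.5% of all genes and 14 loci, 11 nearest a cuticle gene, with strength 55.5. The authors' conservative list of the pooled series gave 22 genes (18.3%, against 40.6%), 28 summits at 28 loci, 23 nearest a cuticle gene, strength 46.7 and 5 clusters.

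Leaving out each replicate in turn gave 9 to 13 cuticle genes (7.5 to 10.8%, against 22.5 to 27.8%), 8 to 14 loci, 7 to 11 nearest a cuticle gene, and median strengths of 58.4 to 70.02. The highest counts and the lowest strength came without replicate 3, the shortest list. No paired analysis was possible because there is 1 group. Read depth is unknown, and a site below the threshold at this depth cannot be told from an empty one. With 8 shared loci, medians and shares move with each locus.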
